A study of Mus musculus with 12 samples.

Results

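A group of genes named for the crosslinking of extracellular matrix proteins was examined in primary mouse oligodendrocytes (OLs) that had received an siRNA against the transcription factor Egr2. RNA was measured, and crosslinking of the matrix was not. The group held 10 genes chosen by symbol: the lysyl oxidases Lox, Loxl1, Loxl2, Loxl3 and Loxl4, the transglutaminases Tgm1 and Tgm2, and the lysyl hydroxylases Plod1, Plod2 and Plod3. All 10 were among the 56860 named genes of the count table and all 10 passed the filter on low counts, which kept 16600 genes. Tgm1 was the member with the clearest difference. Its level fell by 71.1% in the siEgr2 group, and no siEgr2 library came near the siNC range. Of the other members, 5 were lower by a smaller amount at an adjusted p under 0.05 (11.3% of all genes tested), and none was higher (8.57%).

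Both groups consisted of O4+ cells of the genotype C57BL/6J, expanded with PDGF-AA and differentiated with insulin, triiodothyronine and ciliary neurotrophic factor. The labels give the tissue as medial prefrontal cortex, while the study's methods describe the cortex of mice in the first postnatal week. The 6 libraries of the siEgr2 group received siEgr2, for which the methods use the words siRNA and interference plasmid, the 6 libraries of the siNC group received the negative control (NC) of the labels, and total RNA was sequenced after 48 h. Whether replicates came from separate cultures or from pooled animals is not given in the sources used here, so p-values measure the spread between these libraries, which may be technical.

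Depth did not overlap between the groups, with 28682946 to 39383014 counts in the siNC libraries against 8034251 to 16683677 in the siEgr2 libraries. Rn18s-rs5, a gene of 18S ribosomal RNA, took 0.142% to 1.05% of the counts in siNC libraries against 10.5% to 16.5% in siEgr2 libraries. Depth and ribosomal RNA share therefore cannot be told apart from the treatment in the comparison between groups. The 10 members together held 18899 to 27044 counts in a siNC library against 4142 to 7751 in a siEgr2 library. Levels are given as CPM, the counts for each 1000000 counts of the library after TMM scaling (a correction for differences in composition), with the SD over 6 libraries.

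Collagen and elastin gain strength through covalent bonds made in steps. Lysyl hydroxylases act first, in the endoplasmic reticulum, where they hydroxylate lysines of new collagen chains and so set which crosslinks can form. Lysyl oxidases are copper-dependent enzymes that act outside the cell and turn lysines and hydroxylysines into aldehydes, which then react with neighbouring chains. Transglutaminases are calcium-dependent and join a glutamine of one protein to a lysine of another. In the brain the fibrillar matrix is made mainly around vessels and in the meninges, while basement membranes line the vessels and the brain surface.

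Promoter sequence was taken from RefSeq (GRCm38.p6) as 300 bases around each start, 250 before and 50 after. It was given for 4 of the 10 members, Loxl4, Plod1, Plod3 and Tgm1, in 5 windows. The windows were searched on both strands for the letters GCGNGGGCG (an EGR motif), TGANTCA (AP-1), ACATTCC (TEAD) and ACGTG (hypoxia response), where N is any base. No window of a member held the EGR, AP-1 or TEAD letters, which were found in 5.55%, 7.81% and 3.85% of all 32851 promoter windows. ACGTG was found in 1 Tgm1 window and in the Plod3 window, against 19.6% of all windows. Tgm1 is shown because it was the called member, with a sequence for each of its RefSeq starts, and Plod3 because it held the same letters. Each sequence is limited to the bases before the start that lie outside the exons of the gene, and reads 5′ to 3′ on the strand of the gene, with ACGTG in capitals where it occurs.
Tgm1 distal start, GRCm38.p6 chr14:55713495-55713742, minus strand: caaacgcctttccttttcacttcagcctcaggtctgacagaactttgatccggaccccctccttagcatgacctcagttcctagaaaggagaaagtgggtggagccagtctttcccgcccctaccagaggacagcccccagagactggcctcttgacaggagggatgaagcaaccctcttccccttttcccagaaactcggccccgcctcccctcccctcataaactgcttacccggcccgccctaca
Tgm1 proximal start, GRCm38.p6 chr14:55713090-55713287, minus strand: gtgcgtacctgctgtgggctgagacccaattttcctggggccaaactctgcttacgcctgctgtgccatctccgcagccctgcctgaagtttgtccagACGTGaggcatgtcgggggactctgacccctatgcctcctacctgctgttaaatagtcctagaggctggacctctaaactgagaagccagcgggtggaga
Plod3, GRCm38.p6 chr5:136986769-136987018, plus strand: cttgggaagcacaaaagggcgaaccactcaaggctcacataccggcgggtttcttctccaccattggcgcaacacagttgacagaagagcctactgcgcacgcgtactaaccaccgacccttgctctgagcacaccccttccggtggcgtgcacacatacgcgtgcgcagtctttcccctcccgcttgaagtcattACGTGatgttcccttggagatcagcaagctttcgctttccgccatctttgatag
The match lay 101 bases before the proximal Tgm1 start and 54 bases before the Plod3 start. The distal Tgm1 sequence held none of the motifs searched. A match describes letters in these windows and no binding was measured here.

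Egr2, the targeted gene (chr10:67535475-67542188, plus strand, GRCm38, protein-coding), was measured first. Its level ranged from 3.89 to 7.06 CPM with a median of 5.19 in the siNC group and from 2.22 to 4.86 CPM with a median of 3.93 in the siEgr2 group. The ranges overlapped, and all 6 siEgr2 libraries were below the siNC median. Its log2 fold change was −0.51 (SE 0.21) and did not pass the test (edgeR, adjusted p = 0.0981), at 30 to 65 counts in a siEgr2 library. The exact permutation test of Egr2 alone, over all assignments of 6 against 6 libraries, gave p = 0.0433 (two-sided).

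**Figure D1:**
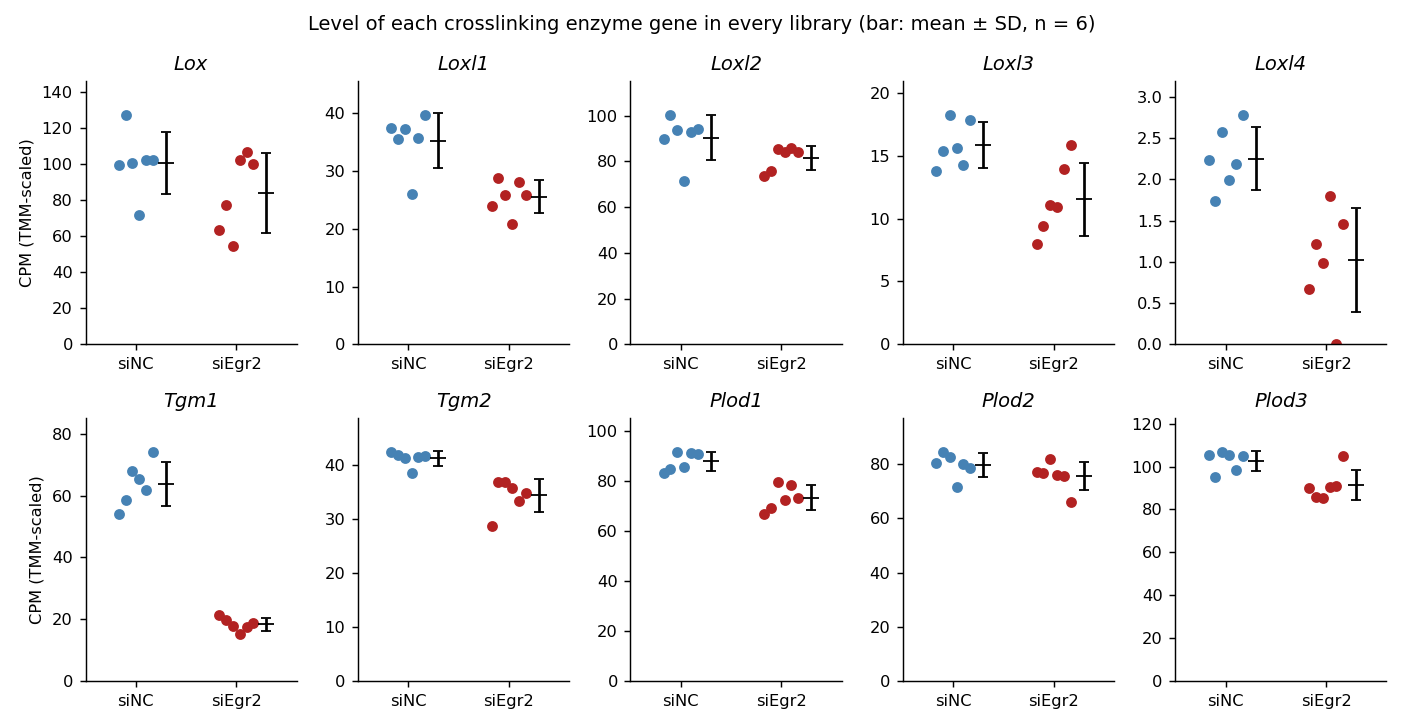
CPM (TMM-scaled, axes from 0) of each crosslinking enzyme gene in the 6 siNC libraries (blue) and the 6 siEgr2 libraries (red), with the mean ± SD beside the points. Tgm1 stands apart, with siEgr2 libraries between 15.3 and 21.2 CPM and siNC libraries between 54.0 and 74.1 CPM, and the groups are also separate for Tgm2 and Plod1.

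Calls needed both an adjusted p under 0.05 (edgeR, Benjamini-Hochberg over the 16600 genes tested) and a log2 fold change beyond 0.5 in either direction. By this rule 1 of the 10 members was called lower, where 5.08% of all genes tested were called lower. No member was called higher, against 2.63% of all genes. At an unadjusted p under 0.05 no member was higher either, and DESeq2 and limma-voom also called none higher. Both follow from the negative log2 fold changes of all 10 members in each fit and are no further test. At an adjusted p under 0.05 alone, 6 of the 10 members passed, all in the direction of a lower level, against 19.9% of all genes in either direction and 11.3% in this one. In 3 members every siEgr2 library was below every siNC library, against 7.00% of all genes. All 10 log2 fold changes were negative, with a median of −0.26 over the members and 0.0046 over all genes tested. In bulk samples, fewer cells of a type and less RNA per cell cannot be told apart.

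**Figure D2:**
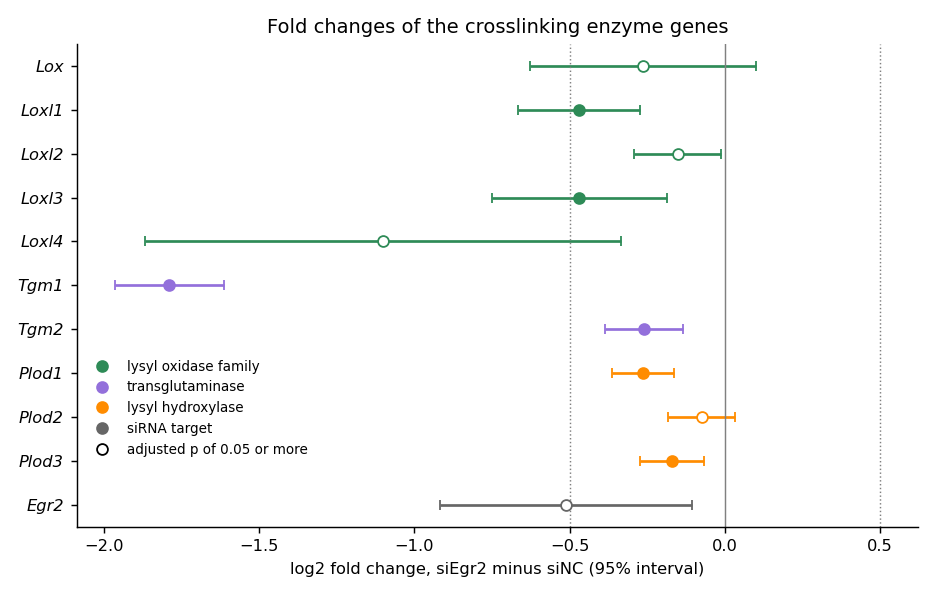
Log2 fold change (siEgr2 minus siNC) of each crosslinking enzyme gene and of Egr2, with bars of the 95% interval from the standard error and dotted lines at the fold threshold. Filled points passed an adjusted p of 0.05, and only Tgm1, at −1.79, lies beyond the threshold with its whole bar.

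Of the lysyl hydroxylases, Plod1 and Plod3 fell and Plod2 did not pass the test. Plod1 (chr4:147909753-147936767, minus strand), which hydroxylates lysines in the triple-helical part of collagen, ranged from 83.2 to 91.6 CPM with a median of 88.2 in the siNC group. In the siEgr2 group it ranged from 66.8 to 79.4 CPM with a median of 72.9. All siEgr2 libraries were thus below the lowest siNC library, although the gap between the groups was small. The mean fell from 87.9 ± 3.73 to 73.2 ± 4.99 CPM, a log2 fold change of −0.26 (SE 0.051, adjusted p = 0.00151). Plod1 had the smallest adjusted p of the members after Tgm1, with a change of about the same size as that of Tgm2.

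Plod3 (chr5:136987019-136996648, plus strand) encodes an enzyme that also adds sugars to hydroxylysine and is needed for collagen IV of basement membranes. It ranged from 95.1 to 107 CPM with a median of 105 in the siNC group and from 85.6 to 105 CPM with a median of 90.3 in the siEgr2 group. Replicate 6 of the siEgr2 group was at the siNC level, and the other 5 siEgr2 libraries were below every siNC library. A log2 fold change of −0.17 (SE 0.053, adjusted p = 0.0316) was found. It was −0.22 without replicate 6 of the siEgr2 group, and the adjusted p passed 0.05 in 16 of 23 alternatives. The exons of Plod3 share 529 bases with those of Znhit1 on the opposite strand, and whether counting used strand is not given in the sources used here. Znhit1 itself had a log2 fold change of −0.027.

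Plod2 (chr9:92542223-92608428, plus strand), which hydroxylates the telopeptide lysines from which the stable crosslinks of stiff tissues form, ranged from 71.4 to 84.5 CPM in the siNC group and from 66.1 to 81.8 CPM in the siEgr2 group. The ranges overlapped over most of their width, with medians of 80.3 and 76.3 CPM. Plod2 had a log2 fold change of −0.075 (SE 0.055, adjusted p = 0.382), with a 95% interval from −0.18 to 0.033. It was −0.041 without replicate 6 of the siEgr2 group, and −0.26 (adjusted p = 0.00450) with library size as the only scaling, which moved the median of all genes to −0.18. A fall in Plod2 of the size seen in Plod1 lay outside this interval. The ratio of Plod1 to Plod2 counts had a median of 1.12 in the siNC group and 0.964 in the siEgr2 group, a difference of −0.19 on the log2 scale (two-sided exact permutation test, adjusted p = 0.0606 over the 14 pairs of genes within a family). The difference between Plod1 and Plod2 therefore did not pass the threshold.

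Among the lysyl oxidases, Loxl1 and Loxl3 fell and the other 3 did not pass the test. Loxl1 (chr9:58287738-58313186, minus strand), which acts on elastin and is needed to renew elastic fibres, ranged from 26.1 to 39.7 CPM with a median of 36.5 in the siNC group and from 20.9 to 28.7 CPM with a median of 25.8 in the siEgr2 group. The overlap came from replicate 4 of the siNC group at 26.1 CPM, while the other 5 siNC libraries lay between 35.6 and 39.7 CPM, above every siEgr2 library. The mean fell from 35.3 ± 4.77 to 25.5 ± 2.86 CPM, a log2 fold change of −0.47 (SE 0.10, adjusted p = 0.00301). Without replicate 4 of the siNC group the log2 fold change was −0.54 and Loxl1 was called lower, as it was in 4 of 23 alternatives in all.

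Loxl3 (chr6:83034173-83052562, plus strand), a family member needed for palate and cartilage development, ranged from 13.8 to 18.2 CPM with a median of 15.5 in the siNC group and from 8.0 to 15.9 CPM with a median of 10.99 in the siEgr2 group. Of the siEgr2 libraries, 4 were below every siNC library and replicates 5 and 6 were within the siNC range. Loxl3 had a log2 fold change of −0.47 (SE 0.14, adjusted p = 0.0297), as large as that of Loxl1 with a wider error. The adjusted p passed 0.05 in 17 of 23 alternatives, and Loxl3 was called lower in 6 of them. It was lost on leaving out replicate 3 or 6 of the siNC group or any of replicates 1 to 4 of the siEgr2 group, with a highest adjusted p of 0.0673. The exons of Loxl3 share 535 bases with the opposite-strand gene Htra2, which had a log2 fold change of 0.27 (adjusted p = 0.140).

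Loxl4 (chr19:42593982-42612813, minus strand) was the least abundant member, with 57 to 116 counts in a siNC library against 0 to 24 in a siEgr2 library. Its level ranged from 1.74 to 2.78 CPM with a median of 2.22 in the siNC group and from 0 to 1.79 CPM with a median of 1.10 in the siEgr2 group. Replicate 5 of the siEgr2 group had 0 counts, which at its depth allows a level of up to 0.384 CPM (3 counts, counting error only), and 5 of the 6 siEgr2 libraries were below every siNC library. Its log2 fold change of −1.10 (SE 0.39) was larger than that of any other lysyl oxidase, but the adjusted p was 0.0595. Taken alone, Loxl4 gave p = 0.00433 in the exact permutation test. The call depended on the method, since Loxl4 was called lower in 6 of 23 alternatives, among them DESeq2 with an adjusted p of 0.00661 and the fit without replicate 5 of the siEgr2 group with 0.0283.

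Lox (minus strand), the founding enzyme of the family, is on chromosome 18 from 52516067 to 52529867. Its coefficient of variation between libraries was the highest of the members in the siNC group, at 17.4%, and second to that of Loxl4 in the siEgr2 group, at 26.5%. It ranged from 72.0 to 127 CPM with a median of 101 in the siNC group and from 54.4 to 107 CPM with a median of 88.8 in the siEgr2 group. Replicates 1, 2 and 3 of the siEgr2 group were at 63.2, 77.4 and 54.4 CPM, while replicates 4, 5 and 6 were at or near the siNC median. The log2 fold change was −0.26 (SE 0.19, adjusted p = 0.367), with a 95% interval from −0.63 to 0.099. Without replicate 3 of the siEgr2 group it was −0.17 (adjusted p = 0.539).

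Loxl2 (chr14:69609068-69695834, plus strand), which crosslinks collagen IV of basement membranes, ranged from 71.5 to 100.2 CPM with a median of 93.4 in the siNC group and from 73.6 to 85.9 CPM with a median of 84.1 in the siEgr2 group. All siEgr2 libraries were below the siNC median, and none was below replicate 4 of the siNC group, which had the lowest value of all 12 libraries. The log2 fold change was −0.15 (SE 0.071, adjusted p = 0.156). Without replicate 4 of the siNC group it was −0.21 with an adjusted p of 0.0118, and with library size as the only scaling it was −0.33 with an adjusted p of 0.00242. These were the alternatives, 2 of 23, in which Loxl2 passed the test. After thinning every library to the smallest total, the log2 fold change of Loxl2 was −0.096 (adjusted p = 0.376).

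Tgm1 (chr14:55700009-55713926, minus strand), the transglutaminase known from keratinocytes, where it builds the cornified envelope, showed the most marked fall. Whether Tgm1 acts on matrix proteins in these cultures was not tested. In the siNC group its level was 54.0, 58.7, 68.0, 65.2, 61.7 and 74.1 CPM in the order of the replicate numbers. In the siEgr2 group it was 21.2, 19.9, 17.7, 15.3, 17.4 and 18.9 CPM. The lowest siNC library thus exceeded the highest siEgr2 library by a wide margin, with 1859 to 3096 counts in a siNC library against 136 to 316 in a siEgr2 library. The mean fell from 63.7 ± 7.10 to 18.4 ± 2.09 CPM.

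On the log2 scale the fold change of Tgm1 was −1.79 (SE 0.089, 95% interval −1.96 to −1.61), with an adjusted p of 1.87e-09. Of all genes tested, 62 (0.373%) had a lower log2 fold change. The exact permutation test gave p = 0.00216, the smallest that 6 against 6 libraries allow. Tgm1 was called lower in all 23 alternatives that gave it a value, with log2 fold changes from −1.97 to −1.73. Thinning every library to the smallest total gave −1.82, and it was also called when ribosomal RNA and further structural RNA genes were removed before scaling. The relative spread was alike in both groups, with coefficients of variation of 11.2% and 11.4%. An antisense gene, Gm49067, shares 182 exon bases with Tgm1 but held 26 counts in all 12 libraries, against 14485 for Tgm1.

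**Figure D3:**
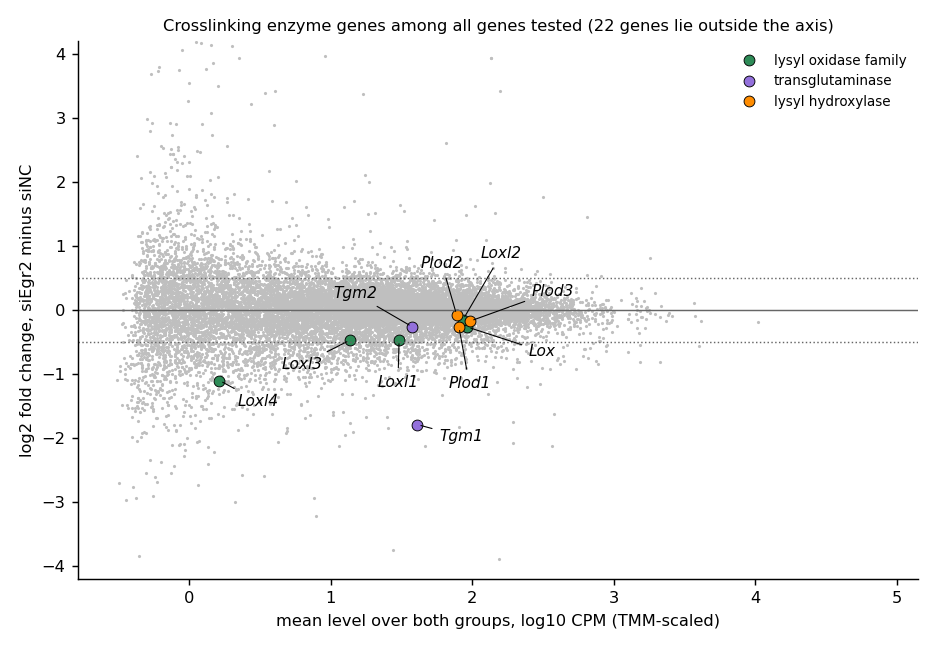
Log2 fold change (siEgr2 minus siNC) against the mean level (log10 CPM) of all 16600 genes tested (grey), with the crosslinking enzyme genes coloured by family, dotted lines at the fold threshold and 22 genes outside the axis. Tgm1 lies below nearly all genes of like abundance, Loxl4 lies among scattered low-abundance genes, and the other 8 members lie between −0.47 and −0.075.

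Tgm2 (chr2:158116402-158146436, minus strand), the widely expressed tissue transglutaminase that binds and crosslinks fibronectin, ranged from 38.4 to 42.3 CPM with a median of 41.6 in the siNC group and from 28.6 to 36.8 CPM with a median of 35.2 in the siEgr2 group. The groups did not overlap, and the coefficient of variation was 3.41% in the siNC group and 9.05% in the siEgr2 group. The log2 fold change was −0.26 (SE 0.064, adjusted p = 0.00836), and the exact permutation test gave p = 0.00216. Tgm2 shares exon bases with 2 genes on the opposite strand, 370 with Rprd1b and 633 with Gm20412, and neither passed the test (adjusted p of 0.376 and 0.406).

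Since both transglutaminases were lower, their ratio within each library was compared, which does not depend on the scaling between libraries. There were 1.28 to 1.78 Tgm1 counts for each Tgm2 count in the siNC libraries, with a median of 1.57. In the siEgr2 libraries the ratio was 0.428 to 0.744, with a median of 0.532. The ratio did not overlap between the groups and differed by −1.52 on the log2 scale (two-sided exact permutation test, p = 0.00216, adjusted p = 0.0303 over 14 pairs). Counts are not corrected for the length of the genes. Per length, Tgm1 took 69.1% ± 2.72 of the sum of both genes in siNC libraries and 43.8% ± 4.56 in siEgr2 libraries.

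**Figure D4:**
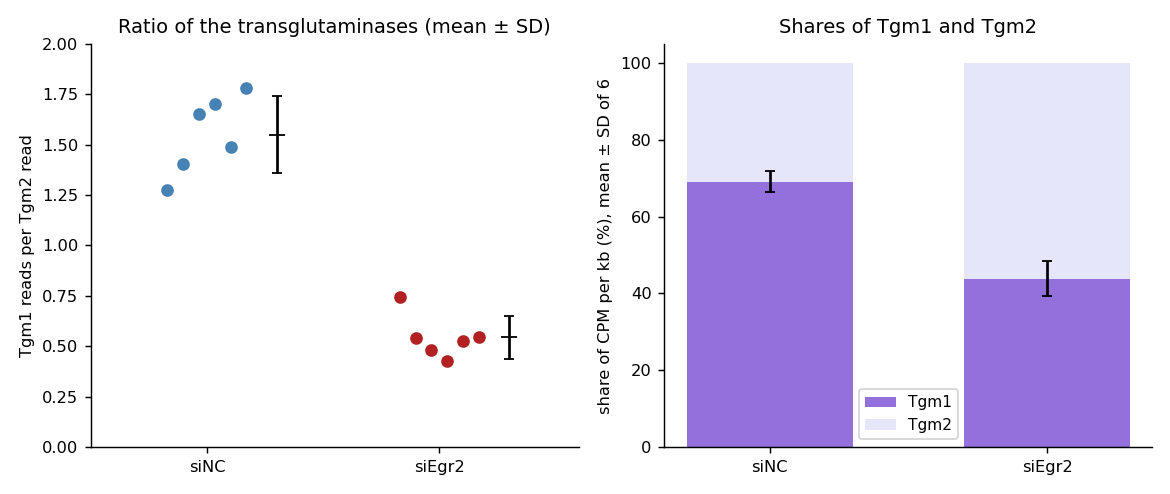
Left, Tgm1 counts for each Tgm2 count in the 6 siNC libraries (blue) and the 6 siEgr2 libraries (red), with 0.5 added to each count and the mean ± SD beside the points. Right, mean share of the summed CPM per kb of exon taken by each gene, where Tgm1 took 69.1% ± 2.72 in the siNC group and 43.8% ± 4.56 in the siEgr2 group.

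Of the other 13 pairs within a family, 2 passed the adjusted threshold, both with overlapping ranges. The ratio of Loxl1 to Loxl2 spanned 0.355 to 0.420 across siNC libraries and 0.249 to 0.380 across siEgr2 libraries, a difference of −0.32 on the log2 scale (exact permutation test, adjusted p = 0.0303). The ratio of Loxl2 to Loxl4 rose by 1.46 on the log2 scale (adjusted p = 0.0303), a value that rests on the few Loxl4 counts and on 1 library without any.

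To compare levels between genes, CPM were divided by the length of the annotated exons in kilobases. In the siNC group the order of mean levels was Plod3 (22.7 CPM per kb), Lox (21.1), Tgm1 (20.1), Loxl2 (16.7), Plod2 (14.8), Plod1 (12.99), Loxl1 (10.7), Tgm2 (8.93), Loxl3 (3.44) and Loxl4 (0.535). Neighbours in this order overlapped between libraries, except Plod1 and Loxl1, Tgm2 and Loxl3, and Loxl3 and Loxl4. In the siEgr2 group Plod3 (20.2 CPM per kb) and Lox (17.6) still came first, and Tgm1 (5.82) moved from place 3 to place 8, after Tgm2 (7.45). In the siEgr2 group neighbours overlapped except Plod2 and Plod1, Plod1 and Loxl1, Tgm1 and Loxl3, and Loxl3 and Loxl4. The order of the other 9 members was the same in both groups.

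**Figure D5:**
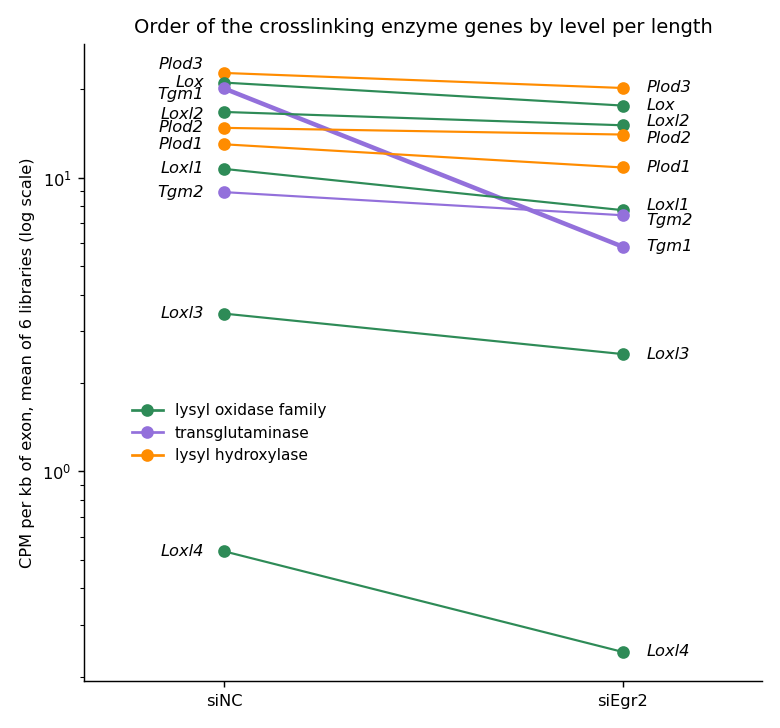
Mean CPM per kb of exon of each crosslinking enzyme gene in the siNC and siEgr2 groups on a log axis, with lines joining the groups and colours for the families. The lines of 9 members do not cross each other, that of Loxl4 falls from 0.535 to 0.243 CPM per kb, and that of Tgm1 crosses 5 of them on its way from 20.1 to 5.82 CPM per kb.

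Summed by family, the lysyl hydroxylases were at 50.5 ± 1.26 CPM per kb in the siNC group and 45.0 ± 1.11 in the siEgr2 group, and the groups did not overlap. The lysyl oxidases were at 52.5 ± 6.61 and 43.2 ± 5.71 CPM per kb, with overlap. The transglutaminases were at 29.1 ± 2.18 and 13.3 ± 0.641 CPM per kb without overlap, and most of this difference was in Tgm1.

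Genes that act with these enzymes were described by lists. Of all genes tested, 11.3% fell and 8.57% rose at an adjusted p under 0.05, and 5.08% were called lower. Of 24 genes for collagen hydroxylation, folding and trimming, 11 fell and 2 rose at an adjusted p under 0.05, and 4 were called lower. The called genes were Adamts14 (log2 fold change −0.94), a procollagen protease, Tll1 (−0.80), another procollagen protease, P4ha3 (−0.66), a prolyl hydroxylase subunit, and Fkbp10 (−0.62), a chaperone that assists the hydroxylation of telopeptide lysines by Plod2. Serpinh1, the collagen chaperone HSP47, fell from 266 ± 15.1 to 198 ± 20.4 CPM (−0.42, adjusted p = 0.000121), and P4ha1 fell by 0.29 on the log2 scale (adjusted p = 0.000613). Bmp1, the protease that activates the Lox precursor, fell by 0.16 on the log2 scale (adjusted p = 0.0276). Plod2 thus did not pass the test while its partner Fkbp10 fell without overlap, from 29.5 ± 3.96 to 19.2 ± 2.74 CPM.

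Of 16 substrates and scaffolds, 9 fell and 1 rose at an adjusted p under 0.05 (11.3% and 8.57% of all genes), and 5 were called lower (5.08% of all genes). These were Col2a1 (log2 fold change −1.38), Fmod (−1.03), Eln (−0.67), Efemp2 (−0.61) and Col5a2 (−0.55). Col2a1 was at only 1.94 ± 0.752 and 0.753 ± 0.385 CPM, with 4 counts in its lowest library. Fmod was at 18.1 ± 7.69 and 8.85 ± 2.74 CPM. Both of these genes overlapped between the groups. Eln, the elastin gene and a substrate of Lox and Loxl1, went from 64.6 ± 5.57 to 40.4 ± 6.84 CPM without overlap, and Efemp2 encodes fibulin-4, which brings Lox to elastin. The main chain of collagen I, Col1a1, was at 336 ± 59.8 and 301 ± 16.4 CPM (−0.16, adjusted p = 0.327). Col4a1 of basement membranes fell by 0.37 on the log2 scale (adjusted p = 0.00502), and Col11a1 rose (0.27, adjusted p = 5.83e-06).

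Of 5 genes for the copper supply on which lysyl oxidases depend, none was called (5.08% of all genes were called lower and 2.63% higher) and 2 fell at an adjusted p under 0.05 (11.3% of all genes). The copper transporter genes Slc31a2 (−0.46, adjusted p = 0.0123) and Slc31a1 (−0.14, adjusted p = 0.0282) fell, and Atp7a, which loads copper onto secreted enzymes, had a log2 fold change of −0.0075 (adjusted p = 0.961). Of 9 other crosslinking enzymes 3 passed the filter on counts. Qsox1, a disulfide-forming oxidase, fell by 0.35 on the log2 scale (adjusted p = 0.0233), and Pxdn, which forms the sulfilimine bonds of collagen IV, had a log2 fold change of −0.12 (adjusted p = 0.0963). Another transglutaminase gene, Tgm4, had means of 0.319 and 0.362 CPM (adjusted p = 0.870), and Tgm3, Tgm5, Tgm6, Tgm7, F13a1 and F13b did not pass the filter.

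Hypoxia and TGF-beta are known to raise several of these enzymes in other cells, and lists of their target genes were also read. Of 14 hypoxia targets tested, none was called (5.08% of all genes were called lower and 2.63% higher), and 4 fell and 2 rose at an adjusted p under 0.05 (11.3% and 8.57% of all genes). Of 12 TGF-beta targets, 6 were called lower (5.08% of all genes) and none higher (2.63%), with a median log2 fold change of −0.52. The called genes included Itgb5 (−0.68), Ccn1 (−0.64), Tagln (−0.63) and Acta2 (−0.57). At an adjusted p under 0.05, 8 of the 12 fell and none rose (11.3% and 8.57% of all genes). The others, Smad7 (−0.16), Skil (0.065), Pmepa1 (0.068) and Tgfbi (0.18), did not pass the test (adjusted p from 0.222 to 0.604). Tagln and Acta2 also stand in the list of fibroblast and mural cell markers.

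The markers of the labelled cell type were present, with a summed level of 10 oligodendrocyte lineage markers of 9372 to 10161 CPM in the siNC group and 9165 to 9601 CPM in the siEgr2 group. Within this sum, 3 of the 10 fell and 3 rose at an adjusted p under 0.05 (11.3% and 8.57% of all genes). Markers of other cells were present too and moved with the groups. The summed level of 9 astrocyte markers was 8172 to 8875 CPM in the siNC group and 5199 to 5908 CPM in the siEgr2 group, without overlap, and 7 of the 9 fell at an adjusted p under 0.05 (11.3% of all genes). The summed level of 12 fibroblast and mural cell markers was 1069 to 1624 and 1019 to 1200 CPM, with overlap, and 7 of the 11 tested fell. This list holds Col1a1, Col1a2 and Col3a1, which make up most of its sum and did not pass the test. The 4 oligodendrocyte precursor markers were higher in sum, at 2467 to 2670 and 2961 to 3188 CPM, without overlap. Endothelial, microglial and neuronal sums overlapped, with Cldn5 and Aif1 at 0 in all libraries.

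Set against these sums, Tgm1 was the only member that was lower without overlap for the astrocyte and for the fibroblast and mural cell markers. Per 1000 CPM of astrocyte markers it stood at 6.09 to 8.71 CPM in the siNC group and 2.69 to 3.75 CPM in the siEgr2 group, a log2 ratio of −1.19. The log2 ratio was −1.51 per fibroblast and mural cell markers and −1.73 per oligodendrocyte lineage markers, both without overlap. Per oligodendrocyte lineage markers Tgm2 was also lower without overlap, at 4.07 to 4.40 CPM in siNC libraries and 3.11 to 4.01 CPM in siEgr2 libraries (log2 ratio −0.20). Per astrocyte markers, the ratios of Loxl2, Plod1, Plod2 and Plod3 were higher in the siEgr2 group without overlap (log2 ratios from 0.35 to 0.53). The astrocyte sum that divides them fell without overlap. The genes themselves did not rise, with log2 fold changes of −0.15, −0.26, −0.075 and −0.17. The share of all genes with such a ratio was not computed. Per fibroblast and mural cell markers all 9 other members overlapped between the groups. The part that the makeup of the cultures had in these changes was not tested.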

How the data were processed

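Primary OLs were profiled by RNA-seq in 12 libraries, 6 siNC and 6 siEgr2, grouped by their titles. The authors extracted total RNA with TRIzol, used Illumina sequencing and deposited raw read counts per gene symbol. The submitters' notes name the build mm10, and the aligner, the counting program and its strand setting are not given in the sources used here. The table held 56860 named genes, 30142 with a count, and 1 blank-named entry with 0 counts, which was left out.

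The analysis used edgeR 4.0.16 in R 4.3.3 (filterByExpr, TMM, robust quasi-likelihood fit over 16600 genes, no covariate, Benjamini-Hochberg adjustment). The thresholds were an adjusted p of 0.05 and an absolute log2 fold change of 0.5. Single genes and count ratios were compared by two-sided exact permutation tests over all assignments of the libraries, on log2 of CPM plus 0.5 or on log2 ratios of counts plus 0.5. Positions and exon lengths came from GENCODE M21 (GRCm38). The results were recomputed with RLE, with upper-quartile scaling and with library size only, and with 2 other count filters, DESeq2 1.42.0, limma-voom (limma 3.58.1), a replicate block, each library left out, thinning, structural RNA genes left out, other pseudocounts and other thresholds. Leaving out the largest and the smallest library together was added after seeing the data.

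The members and the gene lists were chosen with earlier results of these data known. The named genes were all members, Egr2, at most the 5 called genes of each list with the largest change, and genes whose role stands beside a member. A called gene of the TGF-beta list is not reported here. The ratios, and Slc31a1, Slc31a2, Qsox1, Tgm4, Col11a1, Smad7, Skil, Pmepa1, Tgfbi and the genes that overlap a member, were chosen after their values were seen. Depth per library was 8034251 to 39383014 counts, with 0 to 24 counts of Loxl4 and 30 to 65 of Egr2 in a siEgr2 library. No library was a copy of another, with a chi-square per gene of 7.20 to 42.0 over the 30 pairs within groups.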

Additional observations from a re-analysis of the deposited data

Results flagged for a closer look

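Of 26 groups of 6 libraries examined for a library far from the others, 5 held one, where chance gives about 1 in 20 groups, or 1.3 in all. Replicate 4 of the siNC group was flagged as low in 3 members. Its level was 26.1 CPM for Loxl1, where the other siNC libraries lay between 35.6 and 39.7 CPM, and 71.5 CPM for Loxl2, where the others lay between 89.9 and 100.2 CPM. For Tgm2 it was 38.4 CPM, with the others between 41.2 and 42.3 CPM. Replicate 4 was also the lowest siNC library for Lox and Plod2, which were not flagged. Lox was at 72.0 CPM (others 99.3 to 127 CPM) and Plod2 at 71.4 CPM (others 78.8 to 84.5 CPM). In the siEgr2 group, replicate 6 stood at 104.8 CPM for Plod3, above the other 5 at 85.6 to 90.8 CPM. The total of replicate 6 of the siNC group was 39383014 counts, with the others between 28682946 and 32460116. Without replicate 4 of the siNC group, Loxl1 was called lower and Loxl2 passed an adjusted p of 0.05, and Tgm2 had a log2 fold change of −0.28.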

How the results depend on the processing

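No member changed direction under any of the alternatives, so none could be called higher in any. The number of members called lower was 1, and 5.08% of all genes were. It was 4 with library size only (10.5% of all genes), 2 with the filter of at least 1 CPM in 6 libraries (5.43%), 3 with any count as the filter (3.47%), 2 with DESeq2 (5.54%), 2 with limma-voom (5.25%), 2 after thinning to the smallest total (5.14%) and 6 with no fold threshold (11.3%), and it ranged from 1 to 3 when each library was left out (4.51% to 5.17%). Tgm1 was among the called members each time. The members that joined it were Loxl4 by DESeq2, by the filter of at least 1 CPM and after thinning, Loxl3 by limma-voom, Loxl1 and Loxl3 with any count as the filter, and Loxl1, Loxl3 and Loxl4 with library size only. With a library left out they were Loxl1 without siNC replicate 4 or siEgr2 replicate 2, Loxl3 without siNC replicate 1 or siEgr2 replicate 6, Loxl4 without siEgr2 replicate 4, and both Loxl3 and Loxl4 without siEgr2 replicate 5. With no fold threshold they were Loxl1, Loxl3, Tgm2, Plod1 and Plod3. Library size only moved the median of the log2 fold changes over all genes from 0.0046 to −0.18 and the share of calls that were lower from 65.9% to 88.0%. It also moved Lox to −0.45, Tgm2 and Plod1 to −0.44 and Plod3 to −0.35. The number lower at an adjusted p under 0.05 was 6 (11.3% of all genes), and it was 9 with library size only (32.6%) and 4 to 7 with each library left out (at least 9.90%, and each time below the 11.3% with all libraries). The 6 context lists held 15 calls, 31 with library size only, 40 with no fold threshold and 2 with an absolute log2 fold change over 1, and 14 to 19 with each library left out. With a replicate block the counts were 1 member called lower, 6 at an adjusted p under 0.05 and 13 calls in the lists, which changed no call of a member. Samples with the same number did not deviate together (correlations −0.039 to 0.042), and 2 of 6 correlated best with their own number, so the numbers were not taken as pairs. Leaving out the largest and the smallest library together, chosen after seeing the data, left 1 member called lower. Egr2 passed the thresholds with library size only. The cause of these shifts was not tested. Loxl4 had at most 24 counts in a siEgr2 library, and after thinning to the smallest total its log2 fold change was −1.31 (adjusted p = 0.0371).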

Other observations

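The genes within 100 kb on either side of Tgm1 were read after the fall in Tgm1 had been seen. Of 16 neighbours tested, 2 were called lower (5.08% of all genes) and 4 passed an adjusted p of 0.05 (19.9% of all genes), shares that rest on few genes, with log2 fold changes from −1.64 to 0.43 over all 16. The called neighbours were Dhrs1, a dehydrogenase gene 25094 bases away, which went from 568 to 326 CPM (−0.80, adjusted p = 0.000203), and Ltb4r2, a leukotriene receptor gene 47502 bases away, which went from 1.65 to 0.532 CPM (−1.64, adjusted p = 0.00175). The nearest tested gene, Rabggta, 1490 bases away, had a log2 fold change of −0.24 (adjusted p = 0.0297).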
